A study of Mus musculus with 2 samples.

Results

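The 7 genes Cdkn1a, Cdkn1b, Cdkn1c, Cdkn2a, Cdkn2b, Cdkn2c and Cdkn2d encode the inhibitors of cyclin-dependent kinases that are commonly read as marks of senescence. They were taken by symbol from a table of 31053 mouse genes, where each symbol matched a single gene. Their levels were measured in liver cells of 3 mice by droplet single-cell RNA-seq, which counts unique molecular identifiers (UMIs) from the 3′ ends of transcripts. The mice were BL6, the C57BL/6 strain. Sleeping Beauty transposon plasmids with a separate SB13 transposase plasmid were delivered by hydrodynamic tail-vein injection (HDTV), in which a large volume enters the tail vein and plasmid is taken up by a subset of hepatocytes.

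The plasmids carried mVenus and NRAS under the strong CAGGS promoter, as the oncogenic NRAS(G12V) in 2 experimental mice and as NRAS(G12V/D38A), with a second change in the effector loop, in 1 control mouse. Livers were taken on day 6, cells of each mouse were stained with a hashtag antibody, and mVenus-positive cells were sorted and pooled into 1 gene expression library. The deposited table assigns hashtag 1 to the control mouse and hashtags 2 and 3 to the experimental mice, whereas the methods of the study assign hashtag 3 to the control and hashtags 1 and 2 to the experimental mice. The mice are therefore named by hashtag, and with 1 control mouse under either pairing no test between the constructs was made. The Nras row of the table does not separate the mouse gene from the transgene, and in a pool of 3 mice the number of mice limits every test below.

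The kinase inhibitors fall into 2 families. The CIP/KIP proteins p21 (Cdkn1a), p27 (Cdkn1b) and p57 (Cdkn1c) bind cyclin–kinase complexes broadly, including those of cyclin E and CDK2. The INK4 proteins p16 (Cdkn2a), p15 (Cdkn2b), p18 (Cdkn2c) and p19 (Cdkn2d) bind CDK4 and CDK6 and keep them from pairing with D-type cyclins, so that the retinoblastoma protein stays active and S phase genes stay off. Oncogenic RAS in normal cells is known to end in a stable arrest, oncogene-induced senescence, in which p16, p15 and p21 are the inhibitors most often followed. In adult liver, hepatocytes are mostly quiescent and re-enter the cycle after injury.

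Cdkn2a and Cdkn2b are neighbours on the minus strand of chromosome 4 in the mouse build GRCm38, at chr4:89274471-89294653 and chr4:89306299-89311039. Cdkn2a has 2 annotated transcripts with separate first exons, at chr4:89294334-89294653 and chr4:89281986-89282192, which share their later exons. One encodes p19Arf, an activator of p53, and the other p16, and 3′ counts do not tell them apart. Cdkn2c lies at chr4:109660876-109667189 on the minus strand, Cdkn1a at chr17:29090976-29100727 on the plus strand and Cdkn1b at chr6:134920401-134925513 on the plus strand. Cdkn2d lies at chr9:21288410-21291407 and Cdkn1c at chr7:143458339-143461050, both on the minus strand. Cdkn1a and Cdkn1c each overlap 1 annotated gene of the opposite strand (AC167363.2 and Gm44732).

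The promoters of the 3 members with the firmest differences between cells, Cdkn2b, Cdkn1a and Cdkn2c, are shown for comparison, from RefSeq in the build GRCm38.p6 (250 bases before to 50 after a transcription start). The promoter of Cdkn2b is chr4:89310983-89311282 on the minus strand, the upstream of 2 listed promoters of Cdkn2c is chr4:109666707-109667006 on the minus strand, and the downstream of 2 listed promoters of Cdkn1a is chr17:29093519-29093818 on the plus strand. Capitals mark matches, on either strand, to 6 searched motifs: AP-1 (TGANTCA), ETS (CCGGAA), SP1 (GGGCGG), E2F (TTCCCGC), SMAD (CAGACA) and an E-box (CACGTG).
Cdkn2b: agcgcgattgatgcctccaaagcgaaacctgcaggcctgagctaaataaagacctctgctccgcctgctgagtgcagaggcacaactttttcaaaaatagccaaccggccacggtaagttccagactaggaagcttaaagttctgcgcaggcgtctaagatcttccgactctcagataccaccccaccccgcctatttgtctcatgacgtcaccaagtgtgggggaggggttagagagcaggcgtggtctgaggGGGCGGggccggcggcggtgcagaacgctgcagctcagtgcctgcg
Cdkn1a: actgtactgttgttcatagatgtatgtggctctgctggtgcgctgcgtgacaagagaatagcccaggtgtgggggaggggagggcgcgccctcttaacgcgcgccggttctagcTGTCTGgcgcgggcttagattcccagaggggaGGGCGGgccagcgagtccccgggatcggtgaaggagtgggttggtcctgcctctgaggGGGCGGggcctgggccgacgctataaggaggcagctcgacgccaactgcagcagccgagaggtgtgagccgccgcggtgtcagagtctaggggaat
Cdkn2c: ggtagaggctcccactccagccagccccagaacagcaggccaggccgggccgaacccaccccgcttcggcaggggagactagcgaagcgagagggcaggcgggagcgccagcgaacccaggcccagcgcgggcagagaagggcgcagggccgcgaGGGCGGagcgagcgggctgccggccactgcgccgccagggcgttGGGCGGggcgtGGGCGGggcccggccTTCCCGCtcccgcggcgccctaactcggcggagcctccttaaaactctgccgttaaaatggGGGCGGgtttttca

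The Cdkn2b window held 1 SP1 match, the Cdkn1a window 2 SP1 matches and 1 SMAD match, and the Cdkn2c window 4 SP1 matches and 1 E2F match. Over all 32851 promoters of the same length, 35.7% held the SP1 letters, 21.0% the SMAD letters and 4.60% the E2F letters. The AP-1, ETS and E-box letters, held by 7.81%, 14.9% and 7.15% of all promoters, were not in these 3 windows. The second listed promoter of Cdkn2c, chr4:109665323-109665622 on the minus strand and not shown, held 1 E-box match, 1 SMAD match and no SP1 or E2F match. The upstream listed promoter of Cdkn1a, chr17:29090729-29091028 on the plus strand and not shown, held no match to any searched motif. The GC content of the windows shown was 57.7% for Cdkn2b, 64.7% for Cdkn1a and 73.3% for Cdkn2c, against a median of 52.7%. In the windows not shown it was 54.7% for Cdkn1a and 44% for Cdkn2c. The matches overlap by letters only and describe sequence, not binding.

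Of 13151 barcodes, 10220 passed filters (at least 500 genes and 1000 UMIs, under 20% mitochondrial UMIs), and 8510 were hepatocytes by the rule that Alb, Apoa1, Apoa2, Ttr and Fgb together reach at least 1% of UMIs. The 2306 hepatocytes with at least 10000 UMIs, called deep hepatocytes here, had a median of 39419 UMIs, and Alb was detected in all of those called for 1 hashtag. Of these, 231 came from hashtag 1, 1129 from hashtag 2 and 25 from hashtag 3, while 851 had no hashtag call and 70 were called doublets and left out of sums per mouse. Cells were grouped by Nras counts per 1000000 UMIs (CPM) into baseline (under 100), low (100 to under 500), intermediate (500 to under 2000) and high (at least 2000), and UMIs were summed per mouse and group. Hashtag 3 gave a sum of at least 10 cells only at baseline, so comparisons along Nras rest on hashtags 1 and 2. Under the pairing in the methods both of these mice carry NRAS(G12V). Under the deposited pairing hashtag 1 carries NRAS(G12V/D38A), and each test along Nras then averages over 2 constructs. Along the 4 groups the share of cells with an mVenus UMI was 9.98%, 45.4%, 89.7% and 96.9%, the median depth 34734.5, 39953, 54660.5 and 53901 UMIs, and the median share of the 5 hepatocyte genes 8.52%, 5.71%, 4.49% and 3.50%. Levels of the members are CPM, that is UMIs per 1000000 gene UMIs without Nras and mVenus, with 95% exact Poisson intervals that cover counting error only. They are not corrected for capture efficiency of different 3′ ends, so levels of different genes are set side by side only as counts.

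Cdkn2b was the member with the largest difference along Nras: its baseline sums lay between 65.0 and 108 CPM and its high sums at 372 and 383. Cdkn1a was also higher in high cells, Cdkn2c and Cdkn2d were lower, and Cdkn1b, Cdkn1c and Cdkn2a did not pass the test between the 2 extremes. In edgeR's quasi-likelihood test over 11386 genes with the mouse as a block and Benjamini-Hochberg adjustment, 2 of 7 members were higher, where 13.1% of all genes were, and 2 of 7 were lower, where 12.4% were. The median log2 fold change was -0.48 over the 7 members and -0.01 over all genes tested.

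**Figure D1:**
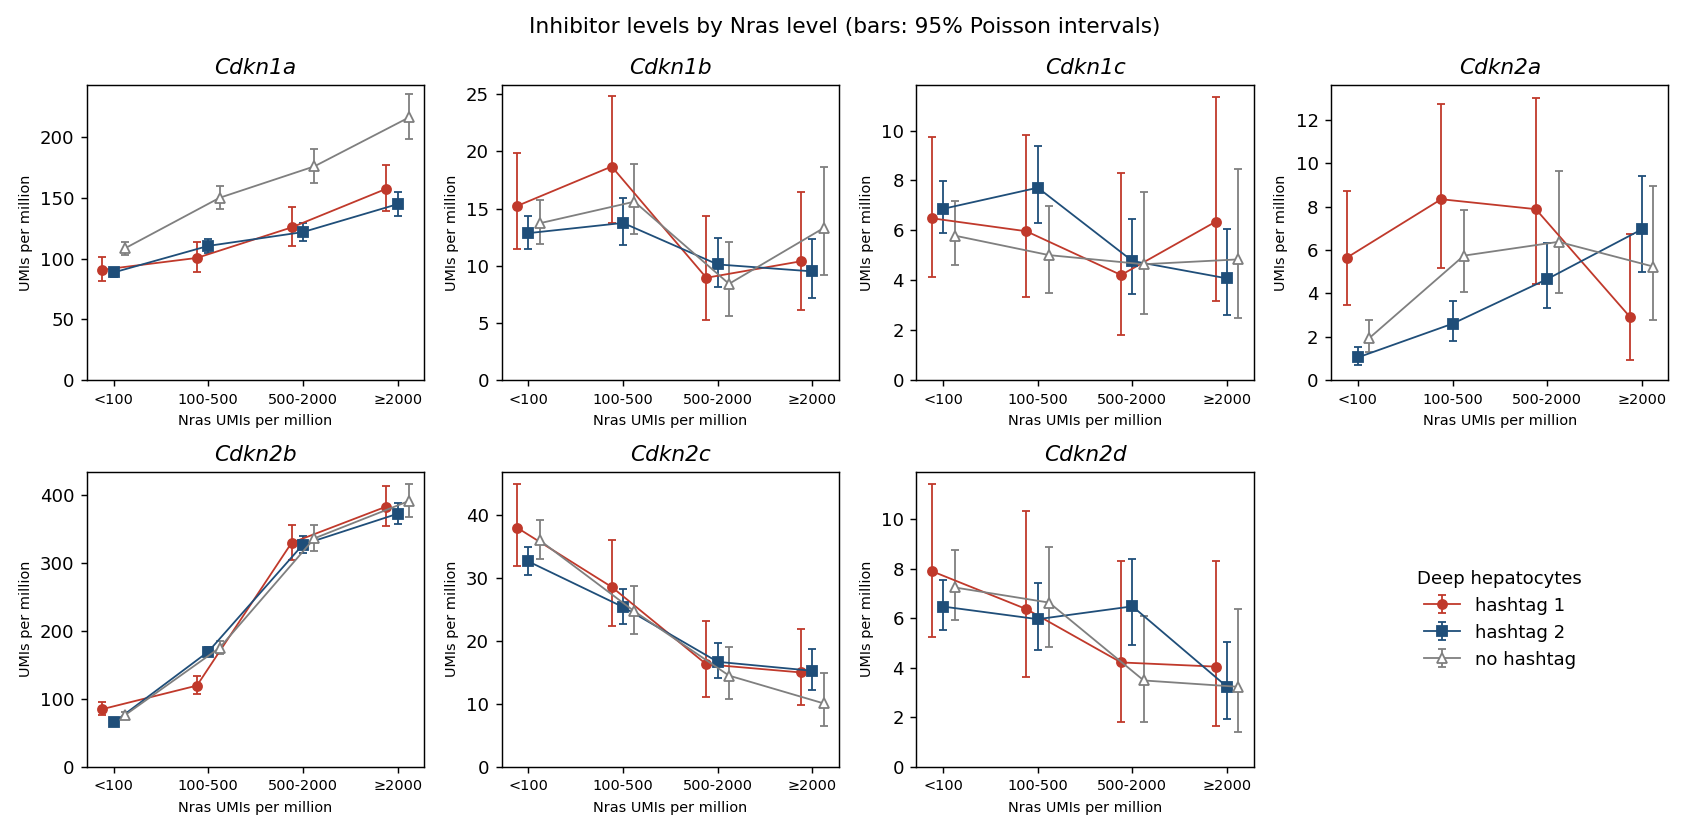
Level of each inhibitor gene (CPM, linear axes from 0) in deep hepatocytes against Nras CPM in 4 groups, for hashtag 1, hashtag 2 and barcodes with no hashtag call, with 95% Poisson intervals. In high cells Cdkn2b stands at 383 and 372, against 84.6 and 65.0 at baseline, while Cdkn2c stands at 15.0 and 15.3 against 38.1 and 32.7.

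Among the CIP/KIP genes, Cdkn1a, a main transcriptional target of p53, stood at 90.8, 101, 126 and 158 CPM from baseline to high in hashtag 1. In hashtag 2 it stood at 88.6, 110, 122 and 145, and the baseline sum of hashtag 3 was 101. Both high sums lay above all 3 baseline sums. High against baseline, the log2 fold change of Cdkn1a was 0.76 ± 0.11 (SE, edgeR adjusted p = 0.000822), with a ratio of the unadjusted levels of 0.79 in hashtag 1 and 0.71 in hashtag 2 on the log2 scale. Barcodes with no hashtag call, which no test used, gave 108, 150, 176 and 216, above the called barcodes in each group. A single cell of the high group with no call held 36 Cdkn1a UMIs of 10000, the most of any deep hepatocyte.

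Cdkn1b, best known for holding quiescent cells out of the cycle, was counted at 15.2, 18.7, 8.94 and 10.4 CPM in hashtag 1 and at 12.8, 13.7, 10.1 and 9.50 in hashtag 2. The intermediate and high sums lay below the baseline sums of both mice. They also lay below that of hashtag 3 (26.9), which held 8 UMIs, 62.5% of them from 1 cell. Baseline cells of hashtag 3 held endothelial markers at 1640 CPM, against 215 and 24.4 in hashtags 1 and 2. The difference of high from baseline missed the threshold (log2 fold change -0.48 ± 0.20 SE, edgeR adjusted p = 0.119). Cdkn1c, an imprinted gene with maternal expression, was counted at 6.48, 5.96, 4.21 and 6.35 in hashtag 1 and at 6.86, 7.71, 4.77 and 4.07 in hashtag 2. Its high and baseline sums came close together in hashtag 1 and the test gave -0.53 ± 0.29 (SE, edgeR adjusted p = 0.237).

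Among the INK4 genes, Cdkn2b had 84.6, 119, 329 and 383 CPM in hashtag 1 and 65.0, 169, 327 and 372 in hashtag 2. Barcodes with no call gave 75.8, 175, 336 and 391. Both high sums lay far above the 3 baseline sums, of which that of hashtag 3 (108) took 84.4% of its Cdkn2b UMIs from 1 cell. The log2 fold change of high from baseline was 2.37 ± 0.17 (SE, edgeR adjusted p = 1.53e-05), with ratios of 2.18 and 2.52 on the log2 scale in hashtags 1 and 2.

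Cdkn2a was far sparser than its neighbour. In hashtag 2 it went from 1.04 through 2.60 and 4.66 to 6.95 CPM, with intervals at baseline (0.678 to 1.52) and high (4.99 to 9.43) that do not overlap. In hashtag 1 it stood at 5.64, 8.35, 7.89 and 2.88, but 95% of the 20 baseline UMIs and 81.0% of the 21 low UMIs came from 1 cell each. The mice differed in direction, at -0.97 in hashtag 1 and 2.75 in hashtag 2 on the log2 scale, and the fit gave 1.53 ± 0.63 (SE, edgeR adjusted p = 0.111). Counts of Cdkn2a sum both of its products.

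Cdkn2c moved opposite to Cdkn2b, at 38.1, 28.6, 16.3 and 15.0 CPM in hashtag 1 and 32.7, 25.4, 16.7 and 15.3 in hashtag 2. Both high sums lay below all 3 baseline sums (33.6 in hashtag 3), with a log2 fold change of -1.18 ± 0.14 (SE, edgeR adjusted p = 0.000236) and ratios of -1.34 and -1.10 in the 2 mice. Cdkn2d was counted at 7.89, 6.36, 4.21 and 4.04 in hashtag 1 and at 6.46, 5.95, 6.47 and 3.22 in hashtag 2. It passed narrowly (-1.01 ± 0.30 SE, edgeR adjusted p = 0.0363) on 7 and 19 UMIs in the 2 high sums, and without the mouse block, with DESeq2 and under 5 other settings it did not.

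The steps between neighbouring groups differed. From baseline to low 0 of 7 members passed edgeR's test, as did 0.123% of all genes (14, against 902 genes at an unadjusted p under 0.05), and the log2 difference of Cdkn2b was 0.96 with an edgeR adjusted p of 0.0600. From low to intermediate 2 of 7 passed, against 4.55% of all genes: Cdkn2b was higher by 1.21 ± 0.16 (SE, edgeR adjusted p = 0.00562) and Cdkn2c fell by 0.63 on the log2 scale (SE 0.14, edgeR adjusted p = 0.0351). From intermediate to high 0 of 7 passed, against 0.0703% of all genes (8, against 971 at an unadjusted p under 0.05), and Cdkn2b differed by 0.20 ± 0.16 (SE, edgeR adjusted p = 0.806). Intermediate against baseline, 3 of 7 members passed where 15.7% of genes did: Cdkn1a (edgeR adjusted p = 0.0170), Cdkn2b (7.51e-05) and Cdkn2c (0.000776).

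In a linear trend over the 4 groups, 3 of 7 members were higher with Nras, where 16.9% of genes were, and 2 of 7 lower, where 16% were. By edgeR these were Cdkn2b (adjusted p = 2.57e-05), Cdkn1a (0.000104) and Cdkn2a (0.0464), and in the other direction Cdkn2c (2.63e-05) and Cdkn2d (0.0460). Cdkn1b (0.0508) and Cdkn1c (0.0793) did not pass. The trend of Cdkn2a turned to -0.13 per group without hashtag 2, and that of Cdkn2d was not called without hashtag 1 (-0.23) or hashtag 2 (-0.34).

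**Figure D2:**
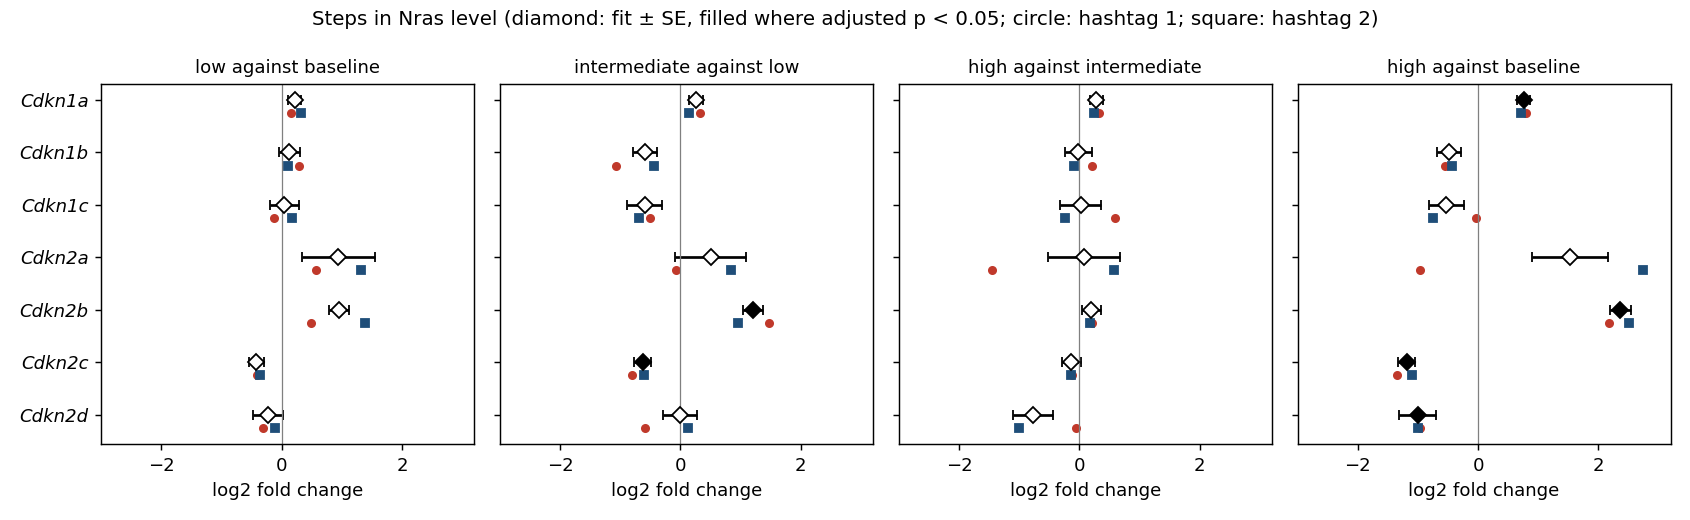
Log2 fold change of each gene for 3 neighbouring steps of Nras and for high against baseline (diamonds with SE, filled where the edgeR adjusted p is under 0.05), with the ratio in hashtag 1 as a circle and in hashtag 2 as a square. The filled diamonds are Cdkn2b and Cdkn2c at intermediate against low, and Cdkn1a, Cdkn2b, Cdkn2c and Cdkn2d at high against baseline, and the 2 mice lie on opposite sides of 0 for Cdkn2a in the last panel.

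Finer steps of Nras were read without a test. In hashtag 2, Cdkn2b stood at 56.9, 82.0, 144, 197, 273, 380, 343 and 402 CPM with step limits at 50, 100, 200, 500, 1000, 2000 and 4000 Nras CPM. Most of its range was covered below 2000, and the last 3 values lay close together. In hashtag 1 it stayed between 78.7 and 96.6 up to 200 and was 153, 302, 355, 383 and 382 above that. Cdkn1a in hashtag 2 went from 74.5 below 50 to 118 between 50 and 100, stayed between 106 and 131 up to 4000, and reached 170 above that. Cdkn2c in hashtag 2 held 32.5 and 33.1 in the 2 lowest steps and lay between 14.0 and 17.5 in the 4 highest.

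**Figure D3:**
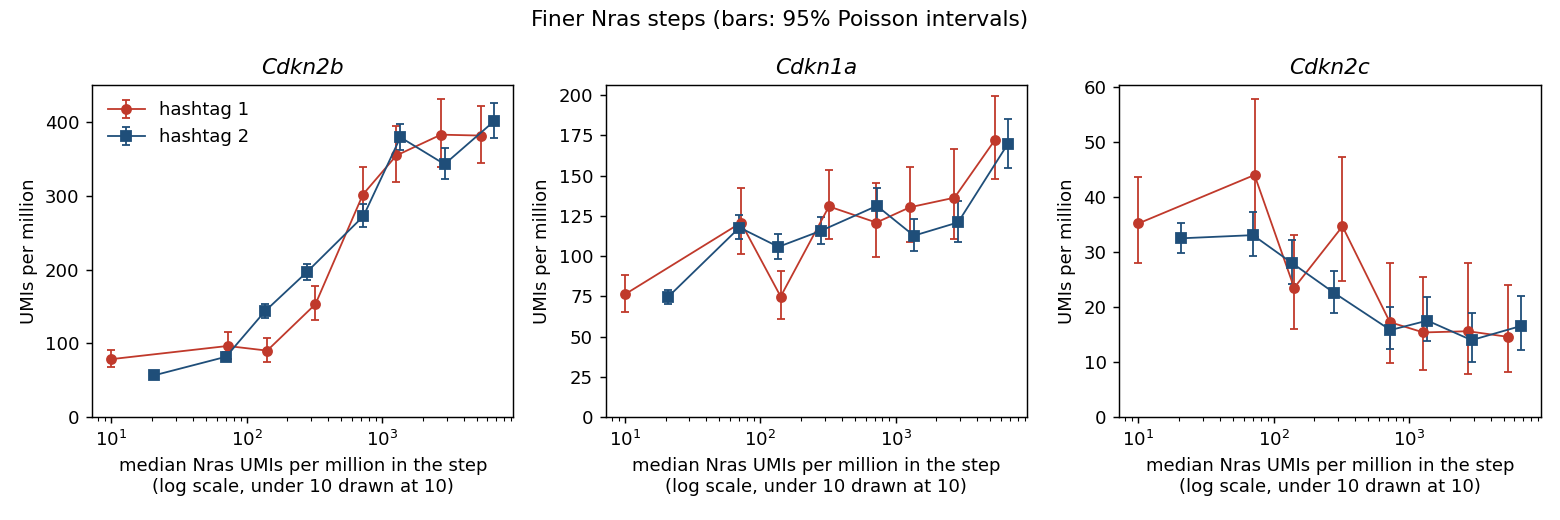
Levels of Cdkn2b, Cdkn1a and Cdkn2c (CPM) against the median Nras CPM of 8 steps (log axis), for hashtags 1 and 2, with 95% Poisson intervals. Cdkn2b levels off near 343 to 402 in hashtag 2, and Cdkn2c reaches its lower values, from 14.0 to 17.5, at about the same Nras.

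Other measures moved along the same groups. Spp1, on the list of cholangiocyte markers, was at 3789 CPM at baseline and 17268 in high cells of hashtag 1 (hashtag 2, 1873 and 17429), and 562 deep hepatocytes passed the gate of that list. Over its 8 genes the summed level was 3948 and 2035 at baseline and 17463 and 17559 in high cells of hashtags 1 and 2, while Krt19, a defining marker, was at 0 in all but 1 UMI of those 4 sums. The plasmacytoid list, passed by 111 deep hepatocytes, summed to 1243 and 1094 at baseline and 1748 and 2193 in high cells of the same mice, with Siglech at 0 to 0.17. When all barcodes over any other gate were left out, only hashtag 2 kept a high sum, so the spread of the high group was not measured there. The values were 2.88 for Cdkn2b, 0.34 for Cdkn1a (edgeR adjusted p = 0.295) and -0.76 for Cdkn2c (0.0802), the last 2 not called. Leaving out only barcodes over the other gates, 23 in number, kept the calls of Cdkn1a (0.73), Cdkn2b (2.32), Cdkn2c (-1.19) and Cdkn2d (-0.999). In cells of 30000 to 80000 UMIs, where depth is closer between groups, the same 4 were called, at 0.56, 2.39, -1.23 and -1.11. The part of the marker genes in the differences was not tested.

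Shares of cells were compared after thinning each deep hepatocyte to 10000 UMIs. Cdkn2b was detected in 29.7%, 51.1%, 83.5% and 94.4% of cells from baseline to high over the whole library, and in 22.7% and 31.3% at baseline and 96.9% and 92.8% in high cells of hashtags 1 and 2. Its median was 0, 1, 3 and 3 UMIs per cell, and 2.69%, 11.4%, 30.1% and 32.3% of cells held at least 5. Thus the share of cells and the count per cell were both larger at higher Nras. Cdkn1a was detected in 41.8%, 51.6%, 62.5% and 67.7% of cells, and Cdkn2c in 29.1%, 22.7%, 16.5% and 13.3%. The other 4 genes were in at most 14.4% of cells in any group, and Cdkn2a in 1.19%, 2.95%, 2.57% and 6.15%.

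Counted together, a deep hepatocyte held a UMI of 1.30, 1.55, 1.86 and 2.03 of the 7 genes on average from baseline to high. This mean adds up the shares of the single genes, and the largest change among them was that of Cdkn2b. From baseline to high its share went from 29.7% to 94.4%, that of Cdkn1a from 41.8% to 67.7% and that of Cdkn2c from 29.1% to 13.3%. No inhibitor was detected in 23.4% of baseline cells and 0.513% of high cells. At least 3 were detected in 10.8% and 24.6%, but the mice differed in the high group, at 40.6% of 32 cells in hashtag 1 and 16.5% of 97 cells in hashtag 2.

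**Figure D4:**
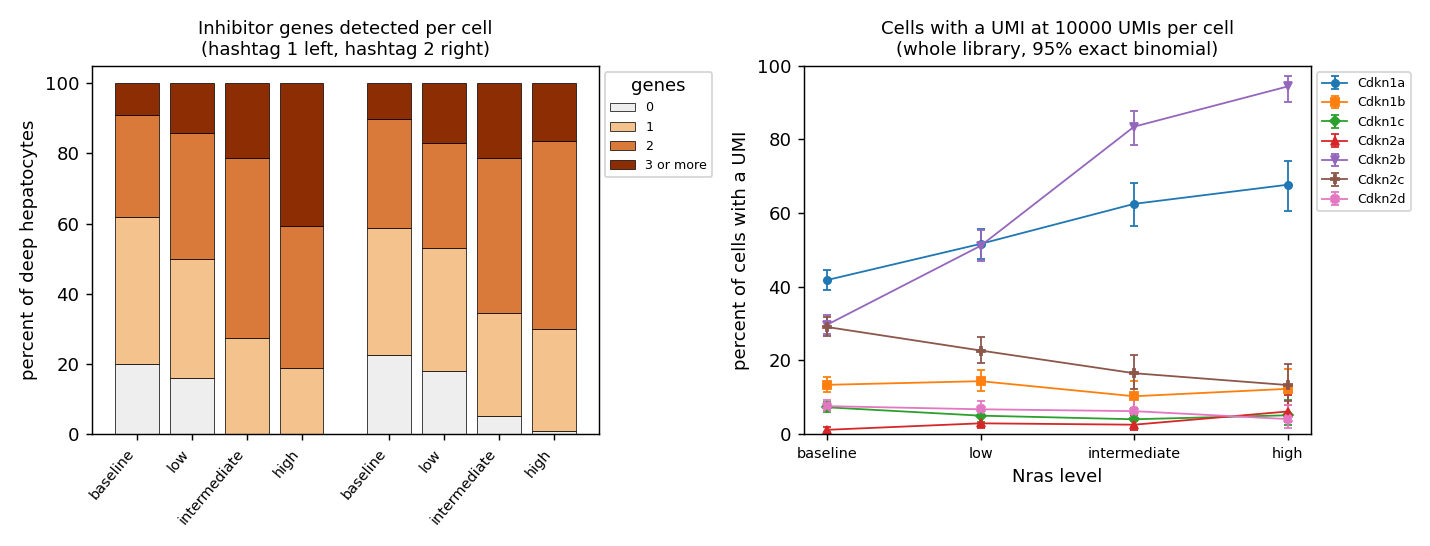
Left, percent of deep hepatocytes with 0, 1, 2 or at least 3 of the 7 genes detected at 10000 UMIs per cell, by Nras group in hashtags 1 and 2. Right, percent of cells with a UMI of each gene over the whole library, with 95% exact binomial intervals, where Cdkn2b goes from 29.7% to 94.4% and Cdkn2c from 29.1% to 13.3%.

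Co-detection in the same thinned barcodes is a description, since the cells share a library and a depth. Cdkn1a and Cdkn2b were found together in 27.5% of deep hepatocytes, where the product of their shares is 22.9% (odds ratio 2.08). Both shares go up with Nras, and within the Nras groups of hashtag 2 the odds ratio was 1.71, 1.36, 1.20 and 0.275, against 1.79 over all its cells. It was thus closer to 1 in the middle groups than over all cells of this mouse, and in the high group only 1 cell lacked both. Cdkn2a was found in 51 cells, of which 46 also held Cdkn2b and 40 held Cdkn1a. Over all deep hepatocytes Cdkn2b was detected in 46.9% and Cdkn1a in 48.9%. The detected shares of these genes were all larger in the high group than at baseline. The part of Nras in these counts was not tested. Cdkn2b and Cdkn2c were found together in 9.41% of cells against a product of 11.6% (odds ratio 0.623), and Cdkn2c and Cdkn2d had an odds ratio of 1.42.

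Few deep hepatocytes had at least 3 of 15 cycling genes after thinning: 7 in hashtag 1, 13 in hashtag 2 and 1 in hashtag 3, too few in a second mouse for a test. In the 13 cells of hashtag 2, Cdkn2b stood at 14.1 CPM (95% interval 6.43 to 26.7) against 171 (167 to 174) in the other 1116. Their Cdkn2d was 50.03 against 5.44 and their Cdkn2c 54.7 against 25.9, while Cdkn1a was 76.6 against 106. So within this mouse the cycling cells were low in Cdkn2b and high in the 2 INK4 genes that were lower at high Nras. In the 7 cells of hashtag 1, Cdkn2b was 84.0 against 197, and only 2 of the 7 held any. The median Nras of the cycling cells was 0 and 46.3 CPM in the 2 mice, against 114 and 91.9 in the others.

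Genes of the surrounding pathway came from lists and were tested in the same fit, where 13.1% of all genes were higher and 12.4% lower. The lists are short, and a count near those shares is not read as a result about a list. Of 9 tested kinase and cyclin partners, 3 were higher in high cells and 0 lower. Ccnd1, the D-type cyclin that CDK4 and CDK6 need, rose by 1.49 ± 0.17 (SE, edgeR adjusted p = 0.00019) and Cdk6, a direct target of INK4 proteins, by 1.33 ± 0.12 (5.46e-05). Of 12 tested cycling genes, 6 were lower and 0 higher. Of these, Cenpf and Tpx2 were at 0 UMIs in both high sums. With 3 UMIs over the 2 high sums as the floor, they were at least 8.80-fold and 5.72-fold lower than baseline. The floor covers counting of UMIs, not how many cycling cells a group holds. In hashtag 2 neither gene fell in order along Nras. TMM-scaled levels from baseline to high were 3.51, 0.0775, 1.31 and 0 for Cenpf and 2.56, 0.232, 1.55 and 0 for Tpx2. Few deep hepatocytes held at least 3 cycling genes, and the part of those cells in these sums was not tested. The median of the cycling list was -3.18 on the log2 scale, and -2.54 with the genes at 0 set to their bounds. Of 13 tested S phase genes, 1 was higher (Mcm6, 1.49 ± 0.30) and 1 lower (Rrm2, -2.79 ± 0.88), and of 7 tested genes of the RB and E2F families 1 was higher (E2f3, 0.84 ± 0.25).

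Of 15 tested genes of the p53 pathway, of which Cdkn1a is a target, 6 were higher and 0 lower (13.1% and 12.4% over all genes), with a list median of 0.39. Trp53 itself rose by 1.11 ± 0.12 (SE, edgeR adjusted p = 0.000184), Bax, which promotes apoptosis, by 0.67 ± 0.09 and Mdm2, which degrades p53, by 0.63 ± 0.14. Of 16 regulators of the INK4 genes, 4 were higher and 1 lower (list median 0.02), led by the AP-1 subunit gene Fosl1 (4.01 ± 0.34, edgeR adjusted p = 3.8e-05) and Ets1 (1.47 ± 0.25, 0.00231). Of 10 tested genes of the TGF-beta pathway, which induces Cdkn2b in many epithelial cells, 2 were higher and 0 lower (list median 0.39), a count near the 13.1% of all genes that were higher: Smad3 (0.99 ± 0.17) and the receptor gene Tgfbr2 (0.96 ± 0.12). Of 6 tested regulators of p27 and p57, 2 were lower (list median -0.38), Foxo1 by -0.95 ± 0.22 and Kcnq1ot1, the RNA that silences the imprinted region of Cdkn1c, by -0.39 ± 0.12. Of 8 genes of senescence chromatin 2 were higher (list median 0.17), Hmga1 (2.70 ± 0.20) and Hmga2 (2.30 ± 0.30).

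Likeness of pattern was read over the 9 sums of mouse and Nras group, which share their cells' depth and mouse, among genes of at least 10 CPM. The genes closest to Cdkn2b by Pearson's r of log2 levels were Dhh (0.996), Npm1 (0.995), Itga3 (0.992) and Tnfrsf12a. Those closest to Cdkn1a were Cpe (0.988), Mfge8, Cdc73, Elovl7 and Sugt1, and those closest to Cdkn2c were Pygl (0.9903), Amacr, Hagh and Acadvl. For Cdkn1b they were Zfand1 (0.976), Idh2, Srpk2, Bpgm and Sos1. Cdkn2b itself had r of 0.943 with Cdkn1a and -0.977 with Cdkn2c over these sums.

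Between the mice, Cdkn2b over all deep hepatocytes was 195, 169 and 135 CPM in hashtags 1, 2 and 3, with 95% intervals of 186 to 204, 165 to 172 and 107 to 167. Cdkn1a was 112, 106 and 96.8 in the same order. Within Nras groups, the intervals of Cdkn2b in hashtags 1 and 2 overlapped at intermediate and high Nras but not at baseline, where hashtag 1 was higher (84.6 against 65.0), or at low Nras, where it was lower (119 against 169). The deposited table and the methods differ on whether hashtag 1 is the control. Above baseline hashtag 3 had too few cells for a sum, with Cdkn2b at 33.7 CPM in 7 low cells and 307 in 2 high cells.

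Hepatocytes with fewer than 10000 UMIs, 6204 in number, had lower levels of Cdkn2b (29.5 against 168 CPM in deep cells) and Cdkn1a (40.7 against 115). Their Cdkn2c was 43.2 against 27.1, Cdkn1c 10.1 against 6.04 and Cdkn2d 11.99 against 6.19. Deep hepatocytes at baseline Nras alone held Cdkn2b at 69.9, Cdkn1a at 94.9 and Cdkn2c at 34.3. The deep cells thus differ from the shallow ones in Nras as well, and the part of each was not tested. Cdkn1c in shallow cells was 9.39, 13.6 and 40.2 in hashtags 1, 2 and 3. So a level over all hepatocytes depends on how many shallow cells are in it, which was most of hashtag 3 (397 of 422).

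Other cell types in the sort were gated by at least 3 detected markers of a type that together made 0.3% or more of UMIs, with the hepatocyte genes under 1%, with no member among the markers. They held Alb at mean levels of 971 to 2714 CPM, against 22680 ± 9091 (SD, n = 3) in hepatocytes. Alb is among the genes of the hepatocyte rule, so the gates set this difference and it does not measure purity. Sums per mouse were compared with all hepatocytes of the same mice by edgeR over 6141 genes, with Cdkn2a too sparse to be tested. The members called were 2 of 6 in B cells (30.2% of all genes), 2 of 6 in conventional dendritic cells (37.8%), 4 of 6 in endothelial cells (38.9%), 1 of 6 in macrophages (24%), 4 of 6 in mature dendritic cells (45.2%) and 4 of 6 in T and NK cells (38.9%). The share of members was near that of all genes in B cells, conventional dendritic cells and macrophages and above it in the other 3 types, on 6 members each.

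**Figure D5:**
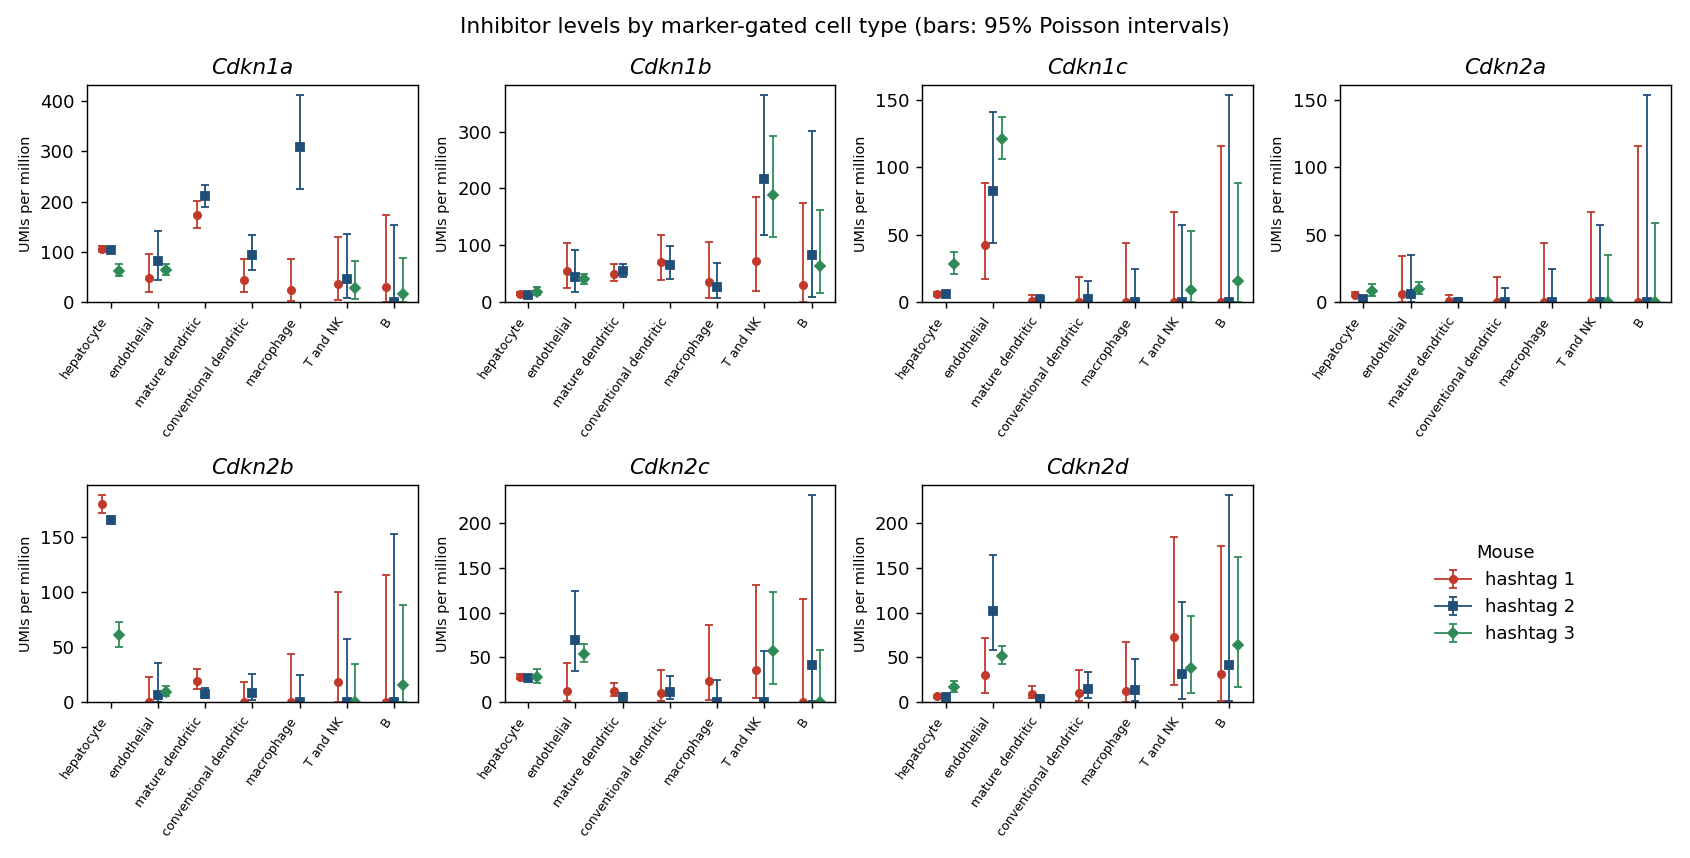
Level of each gene (CPM) in hepatocytes and 6 marker-gated cell types for each mouse with at least 10 cells of the type, with 95% Poisson intervals. Cdkn2b is at 60.9 to 180 in hepatocytes of all depths and under 20 in every other type shown. Of the types shown, Cdkn1b has its highest mean in T and NK cells and Cdkn1c in endothelial cells.

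Summed over hepatocytes of all depths and Nras levels, Cdkn2b was the hepatocyte-weighted member, at 180, 165 and 60.9 CPM in hashtags 1, 2 and 3 (136 ± 65.1 SD, n = 3). In endothelial cells it was 0, 6.34 and 9.45 (log2 difference from hepatocytes -4.16 ± 0.66 SE, edgeR adjusted p = 0.000444), and in mature dendritic cells 19.6 and 7.22 (-3.35 ± 0.66, 0.000857). These sums did not overlap. Hepatocytes under 10000 UMIs alone held 15.3, 22.9 and 24.9 in hashtags 1, 2 and 3. The mature dendritic cells of hashtag 1 (19.6) thus lay above the shallow hepatocytes of the same mouse. The part of depth and Nras in these differences was not tested. T and NK cells and B cells held 1 UMI each and conventional dendritic cells 3. Pooled over the same mice, the level in hepatocytes was 37.2 times (95% interval 6.68 to 1470), 19.6 times (3.52 to 775) and 30.6 times (10.5 to 148) as high. These ratios and intervals ignore the mouse, and the types and hepatocytes draw on the mice in different shares. With the mouse as a block, all were called by edgeR (adjusted p = 0.00174, 0.0128 and 0.000811). Macrophages held none, which makes hepatocytes, pooled over the same mice, at least 13.01-fold higher against a floor of 3 UMIs over the group (edgeR adjusted p = 0.0014). Thinned to 2000 UMIs, 10.6% of the 6327 hepatocytes and 1.96% of the 511 endothelial cells of at least that depth held a Cdkn2b UMI. The median depths before thinning, 3724.5 and 3761.5 UMIs, are over all 8510 and 550 cells of these types. They do not describe the cells counted in the shares.

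Without 1 mouse some of these calls of Cdkn2b were lost: in B cells and macrophages without hashtag 1 (edgeR adjusted p = 0.107 and 0.0540) or hashtag 2 (0.105 and 0.0844), in conventional dendritic cells without hashtag 1 (0.0641) and in mature dendritic cells without hashtag 2 (0.0642). When cells were thinned to 1000 UMIs it remained called only in mature dendritic cells, the other 5 types having adjusted p of 0.0709 to 0.29.

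Among types with a sum per mouse, Cdkn1b was highest in T and NK cells, at 72.3, 217 and 189 CPM against 15.0, 12.5 and 18.9 in hepatocytes (log2 difference 2.98 ± 0.37 SE, edgeR adjusted p = 2.55e-05). It was also higher in conventional dendritic cells (68.4 ± 3.16 SD, n = 2; 2.25 ± 0.39 SE, edgeR adjusted p = 0.000338), mature dendritic cells (50.65 and 55.33 CPM; 2.17 ± 0.35, 0.000142) and endothelial cells (46.6 ± 7.61, n = 3; 0.99 ± 0.35, 0.0360). Without any 1 of the 3 mice the endothelial call was lost (edgeR adjusted p = 0.283, 0.284 and 0.0663), and without hashtag 1 or 2 that of conventional dendritic cells (0.0518 and 0.0512).

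Among the same types, Cdkn1c was highest in endothelial cells, at 42.8, 82.4 and 121 CPM in the 3 mice against 6.16 to 28.6 in hepatocytes (2.27 ± 0.46 SE, edgeR adjusted p = 0.00194), and lower in mature dendritic cells (1.42 ± 0.54 SD, n = 2; -2.02 ± 0.71 SE, edgeR adjusted p = 0.0312). Without hashtag 1 or 2 the endothelial call was lost (0.0894 and 0.0583), and without any 1 mouse the other (0.315, 0.250 and 0.118). Cdkn1a was higher in mature dendritic cells (174 and 210 CPM; 1.21 ± 0.47 SE, edgeR adjusted p = 0.0457) and lower in T and NK cells (37.0 ± 9.06 SD, n = 3; -1.80 ± 0.63 SE, edgeR adjusted p = 0.0345). In B cells it was lower as well (edgeR adjusted p = 0.0266), on 2 UMIs in 3 mice. The ratio of hepatocytes to B cells, pooled over the mice without regard to the mouse, was 6.17 (95% interval 1.71 to 51.0). In macrophages it differed between mice, at 24.0 and 308, and was not called. Each of the Cdkn1a calls was lost without hashtag 1 (0.148, 0.137 and 0.0761 in mature dendritic, T and NK and B cells) and without hashtag 2 (0.154, 0.0934 and 0.112), and that of T and NK cells also without hashtag 3 (0.0698).

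Cdkn2d was higher in endothelial cells (61.2 ± 36.4 CPM, SD, n = 3, against 9.81 ± 5.98; 2.19 ± 0.53 SE, edgeR adjusted p = 0.00502) and in T and NK cells (47.0 ± 22.2; 1.91 ± 0.67 SE, edgeR adjusted p = 0.0343). Both calls were lost without hashtag 1 (0.0981 and 0.379) or hashtag 2 (0.174 and 0.128). In the 19 plasmacytoid barcodes of the whole library, too few per mouse for a sum, it was counted at 227 CPM (95% interval 145 to 337), and Cdkn1b at 179 (108 to 280). Cdkn2c was not called in any type, with 27.8 ± 0.925 in hepatocytes and 45.4 ± 29.8 in endothelial cells (SD, n = 3). Cdkn2a was at 5.73 ± 2.97 in hepatocytes and 7.47 ± 2.15 in endothelial cells, had 2 UMIs in mature dendritic cells and 0 in the 4 other types, where the floor of 3 UMIs over the group (5.50 to 25.2 CPM) lies above the level in hepatocytes pooled over the same mice (3.205 to 3.356 CPM).

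The gate of the cholangiocyte list needs separate mention, since Spp1 and Sox9 are also high in hepatocytes with high Nras. Over the whole library 42 barcodes passed it, with a median Nras of 553 CPM and mVenus in 57.1%. They held Cdkn2b at 452 (95% interval 417 to 490), Cdkn1a at 318 (289 to 350) and Cdkn2a at 36.5 (26.9 to 48.4) CPM, each above the level over deep hepatocytes (168, 115 and 3.40). Of the 42, 23 had at least 500 Nras CPM, and deep hepatocytes at intermediate and high Nras held Cdkn2b at 329 and 372 and Cdkn1a at 136 and 164. By mouse, Cdkn1a was 573 in 6 barcodes of hashtag 1 and 123 (94.5 to 157) in 11 of hashtag 2. Deep hepatocytes of hashtag 2 held it at 106. Cdkn2a was 88.8 and 7.67 in the same barcodes of hashtags 1 and 2. With a sum in hashtag 2 only, the type was not tested, and neither was the part of Nras.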

How the data were processed

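Cells of 3 mice were pooled into 1 gene expression and 1 hashtag library, and the deposited counts are raw UMI counts per gene or tag and barcode. Per the labels the authors used Cell Ranger (version 2.1.1) with the build mm10, and per the methods of the study tags were counted by CITE-seq-Count without mismatches. The gene table holds 1.4208e+08 UMIs with a median of 3908 per barcode. Antibody rows of that table were not used. Hashtags were called by HTODemux (Seurat 5.3.0, quantile 0.99) on the 13141 shared barcodes, of which 56.2% got no call. Doublets by hashtag were left out of sums per mouse, and doublets within a mouse were not searched for.

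UMIs of at least 10 cells were summed per mouse and Nras group or cell type and tested by edgeR 4.0.16 (R 4.3.3, TMM, filterByExpr, glmQLFit and glmQLFTest, mouse as a block, threshold 0.05, Benjamini-Hochberg over all genes tested), without the Nras and mVenus rows. The block stands for the mouse itself, so sums of one hashtag are paired by design. Each SE given with an edgeR log2 fold change was derived as its absolute value over the square root of the F statistic. DESeq2 1.42.0 was an alternative. Tables and figures were made with Python 3.11.15, pandas 2.3.3, scipy 1.17.1 and matplotlib 3.10.9. Tested on simulated data for high against baseline (10846 genes), the fit called 60 of 99 genes changed by 1 and 85 of 94 changed by 2 on the log2 scale, and 2 of 10653 unchanged genes. Apart from the set changes, a simulated gene had the same mean level in all sums. Its spread was the trended dispersion of the fit. The simulation thus held no differences between mice and no outlying single cells, and does not give the error rate in these data.

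All 7 members are named in each comparison. A pathway gene is named if it passes high against baseline and is among the 3 largest changes of its list, and for each member of at least 10 CPM the 5 genes of highest Pearson's r are named, except for 2 that are not reported here. The members and lists were chosen with earlier results of these data known. Gene positions are from GENCODE vM21, and the RefSeq promoter table held 6 of the 7 members, all but Cdkn1c. Proteins were not analysed here.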

Additional observations from a re-analysis of the deposited data

Results flagged for a closer look

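Cdkn2a moved in opposite directions in the 2 mice that have both a baseline and a high sum. The log2 ratio of high to baseline was -0.97 in hashtag 1 and 2.75 in hashtag 2. The difference was not tested, since each mouse has 1 sum per Nras group. In hashtag 1, 19 of the 20 baseline UMIs came from 1 cell.

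Deep barcodes under the hepatocyte limit are outside every comparison along Nras above. Of 482 such barcodes, 22 had at least 2000 Nras CPM, and these held Cdkn2b at 417 CPM (95% Poisson interval 381 to 456), against 12.2 in the 337 with Nras under 100. They also held Cdkn1a at 339, Cdkn2a at 23.4 and Cdkn2c at 5.20, and mVenus was detected in 90.9%. Their median share of the 5 hepatocyte genes was 0.453% and their median depth 56303.5 UMIs. In the 337 these were 0.213% and 12019 UMIs, with mVenus detected in 2.37%. Cdkn1b was at 56.0 CPM in the 337 and 5.20 in the 22. The sets thus differ in more than Nras, and the part of cell type and depth in these levels was not tested.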

How the results depend on the processing

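Of 421 alternative values, 321 kept direction and call or, where they had no test or were counts of genes, stayed close to the reported value. For high against baseline, Cdkn2b passed in 19 of 19 tested alternatives (2.104 to 2.88, of which 2 had a high sum in 1 mouse only), Cdkn1a and Cdkn2c in 18 of 19, Cdkn2d in 12 of 19, Cdkn2a in 3 of 18, Cdkn1b in 0 of 19 and Cdkn1c in 0 of 18. The number of genes called, 2906, was 1284 with cells thinned, 1294 with at least 5% hepatocyte genes, 1026 without barcodes with markers of another type and 1475 with DESeq2. Thinning leaves fewer counts, the next 2 settings leave a high sum in 1 mouse, whose spread is assumed, and the cause of the last was not tested. Without the mouse as a block, 1957 genes were called and Cdkn2d was not (-1.26, adjusted p = 0.0936).

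Without barcodes with markers of another type, Cdkn1a was 0.34, Cdkn1b 0.17, Cdkn2a 4.41 (adjusted p = 0.0436), Cdkn2c -0.76 and Cdkn2d -1.25, and the causes were not tested. Cdkn2a passed with quartiles of Nras (2.68, adjusted p = 0.0180) and with no filter (1.499, 0.0245). Cdkn2d did not pass with mVenus groups (-0.50), thinned cells (-1.39), 5% hepatocyte genes (-1.29), at least 80% of hashtag UMIs from 1 tag (-0.70) and DESeq2 (-1.005, 0.355), and was -1.13 with all deep hepatocytes as 1 pool. Over barcodes with no hashtag call, an alternative chosen after seeing the data like the window of 30000 to 80000 UMIs and the shorter gate list, Cdkn1a was 0.89, Cdkn1b -0.15, Cdkn2c -1.95 and Cdkn2d -1.27. Thinned cells gave no value for Cdkn1c and Cdkn2a.

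Leaving out each mouse in turn moved Cdkn1a between 0.60 and 0.87, Cdkn1c between -0.86 and 0.043, Cdkn2a between -0.88 and 2.63 and Cdkn2d between -1.11 and -0.88, where the fit without hashtag 1 or 2 has 1 mouse and gives no test. In the trend, 1190 to 3837 genes were called against 3741, with the fewest without hashtag 2. The trend of Cdkn1b ranged from -0.23 to -0.18 (called without hashtag 3, adjusted p = 0.0423), Cdkn1c from -0.28 to -0.050 (called without hashtag 1, 0.0471), Cdkn2a from -0.13 to 0.88 and Cdkn2d from -0.34 to -0.23.

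Among cell types, thinning to 1000 UMIs left 466 genes called in B cells, 439 in conventional dendritic, 440 in endothelial, 329 in macrophages, 518 in mature dendritic and 551 in T and NK cells. A hepatocyte share under 0.5% left 1542 in T and NK cells. Leaving out each mouse gave 532 to 1381 in B, 671 to 2452 in conventional dendritic, 164 to 2154 in endothelial, 290 to 1703 in macrophages, 946 to 2974 in mature dendritic and 987 to 1761 in T and NK cells. Values that turned sign were Cdkn1a in conventional dendritic cells (-0.995 to 0.0095, the latter without hashtag 1) and macrophages (-2.36 to 1.22), Cdkn2c in endothelial cells (-0.13 to 0.56) and Cdkn2d in mature dendritic cells (-0.90 to 0.52, with 0.23 without hashtag 3), none of them called. With DESeq2 the calls of Cdkn1a in B and mature dendritic cells and of Cdkn1c in mature dendritic cells were lost (adjusted p = 0.0807, 0.124 and 0.0657). Without thinning, Cdkn1a with Cdkn2b, Cdkn2a with Cdkn2b and Cdkn2b with Cdkn2c were found together in 55.3%, 6.24% and 37.0% of deep hepatocytes.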
